A study of Mus musculus with 8 samples.

Results

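The ABC (ATP-binding cassette) transporter genes were followed in 8 RNA-seq libraries of a mouse lung tumour cell line. Members were chosen by gene symbol and gene type: every protein-coding gene whose symbol is Abc, a letter from a to g and then a digit. This gave 50 genes of the 56884 in the count table, of which 21633 were protein-coding. No count entered the rule, but the family was put forward with results of the same comparison already known. Each member was placed in a class from general knowledge of its protein: 13 export drugs and conjugates (efflux), 22 move lipids, sterols or bile salts, 4 sit in mitochondria, 5 in peroxisomes or lysosomes, 2 regulate potassium channels, and 4 have no membrane-spanning part.

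The samples were parental Lacun3 cells, a mouse lung adenocarcinoma line (STK11 WT, n = 4), and Lacun3 cells in which Stk11 was disrupted with CRISPR (STK11 KO, n = 4). Stk11 encodes LKB1, a kinase that activates AMPK and related kinases, and is often lost in human lung adenocarcinoma. All 8 cultures were untreated, grown in DMEM with 10% FBS and collected in log phase. The comparison is between 1 parental and 1 edited line, and the labels do not say whether the edited line was a clone or a pool. The replicates are labelled biological, and the p-values measure the spread between these libraries, not between independent edits.

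Libraries held 18837263 to 21101904 counts in STK11 WT and 21441601 to 25715008 in STK11 KO. Levels are CPM, counts scaled to a library's TMM-adjusted total, and log2 fold changes are STK11 KO over STK11 WT. Stk11 stood at 64.9, 67.1, 68.4 and 64.7 CPM in STK11 WT and at 35.4, 35.1, 33.5 and 35.0 CPM in STK11 KO, so 52.4% of its mRNA signal remained. The epithelial markers Epcam, Cdh1, Krt8, Krt18, Krt19 and Cldn4 summed to 8158 to 8589 CPM in STK11 WT and 7699 to 8607 CPM in STK11 KO. Nearly all of this was Krt8, Krt18 and Krt19. Within it, Krt18 was lower in STK11 KO (2317 ± 41.4 and 1650 ± 156 CPM) and Krt19 higher (2990 ± 49.1 and 3487 ± 130 CPM, SD, n = 4). Cldn4 was nearly absent, with 37 counts over STK11 WT and 5 over STK11 KO. Of 6 markers of lung adenocarcinoma and alveolar type II cells, Sftpc had 0 counts in every library, Nkx2-1 and Sftpb had 1 count each over all 8, and Lamp3 and Slc34a2 had 3 and 9 counts in STK11 WT and 3 each in STK11 KO. Napsa was present at a low level in every library, with 14 to 37 counts, or 1.32 ± 0.469 CPM in STK11 WT and 1.07 ± 0.490 CPM in STK11 KO (SD, n = 4).

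ABC transporters bind and hydrolyse ATP on a pair of conserved cytosolic domains and use it to drive a substrate across a membrane. Members of the B, C and G subfamilies export drugs and glutathione or glucuronide conjugates, and in tumours they are known for multidrug resistance. The A and G subfamilies mostly move lipids and sterols, the D subfamily serves peroxisomes and lysosomal vitamin B12 export, and the E and F subfamilies carry the ATP-binding domains without a membrane part and act on ribosomes.

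Of the 50 members, 29 had enough counts to be tested. With an adjusted p under 0.05, 14 fell and 5 rose in STK11 KO, and 10 were not called. Of the rises, 1 was lost in many of the other settings, which gave 4 or 5. The 19 called members made up 65.5% of those tested, beside 68.0% of all 13707 tested genes, so the family was called about as often as genes in general. Members that fell made up 48.3%, beside a background of 33.6%, and members that rose made up 17.2%, beside 34.4%. At least 2-fold lower were 9 members (background 9.41% of genes), and at least 2-fold higher was 1 (background 7.02%). In 17 members, or 58.6%, no STK11 KO library overlapped an STK11 WT library, beside 60.6% of all tested genes. Abcb4 and Abca8b passed the filter on low counts through the STK11 WT libraries and would not have passed on the STK11 KO libraries, so their falls are not independent of it. Without them and Abcg4, which passed it on neither group alone, 12 of 26 members fell, 7 of them at least 2-fold, and 5 rose. The median log2 fold change was -0.24 over the 29 tested members, -0.17 over these 26 and 0.01 over all tested genes. By class, the efflux genes held 7 of the 14 falls and none of the rises, and the mitochondrial genes Abcb8 and Abcb10 and the lysosomal gene Abcd4 were among the rises. These class counts are descriptions, and no test was made of a class.

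**Figure D1:**
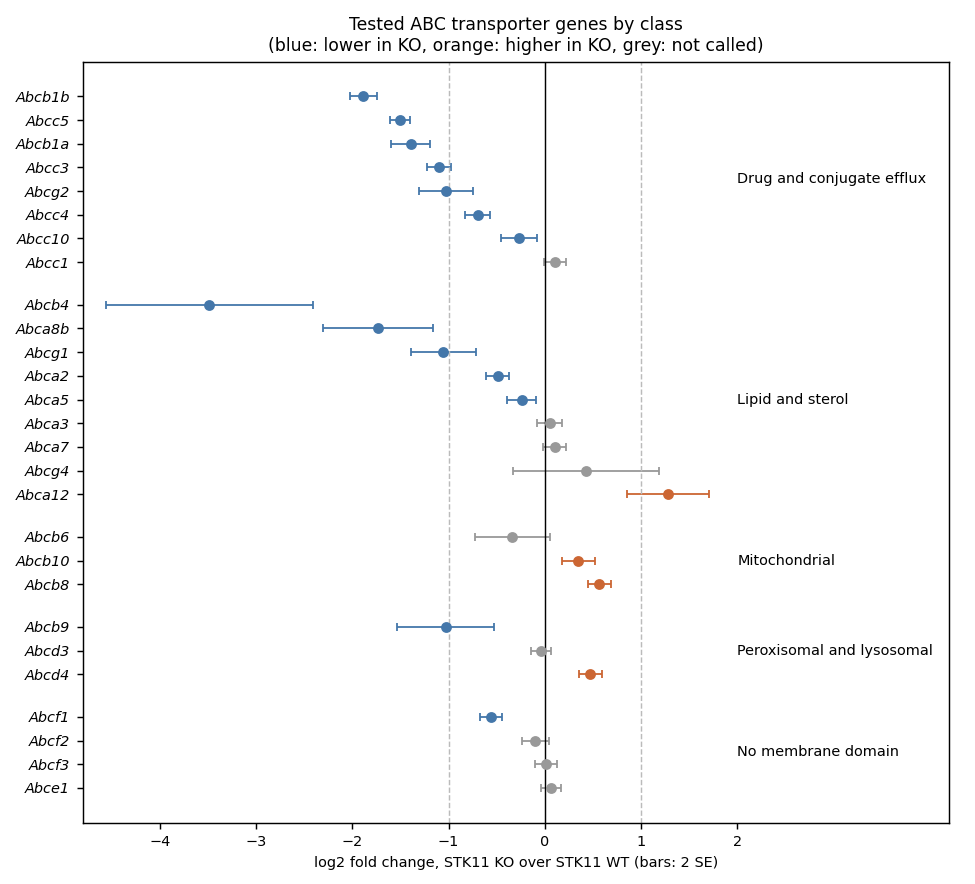
Log2 fold change (horizontal axis, STK11 KO over STK11 WT, 4 libraries each) of 27 of the 29 tested ABC transporter genes, grouped by class, with bars of 2 SE. Blue genes fell, orange genes rose and grey genes were not called, and the dashed lines mark 2-fold. All tested efflux genes except Abcc1 lie left of 0, and Abcb8, Abcb10 and Abcd4 lie right of it.

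Among the efflux genes, the drug pump genes Abcb1a and Abcb1b, the multidrug resistance protein genes Abcc3, Abcc4, Abcc5 and Abcc10, and Abcg2 all fell, and Abcc1 was not called. The 7 that fell were 87.5% of the 8 tested, beside 33.6% of all tested genes. Over these 8 the median log2 fold change was -1.06. Abcb5 and Abcg3 had 0 counts in every library. Abcc2, the canalicular conjugate exporter, had 5 counts over the STK11 WT libraries and none over the STK11 KO libraries, at least 1.77-fold lower if the zero is read as 3 counts, the floor used for a group. Abcc12 had 6 counts against 2, and Abcc6, whose human counterpart is mutated in pseudoxanthoma elasticum, had 5 against 6. In bulk RNA, fewer cells of a type and less RNA per cell cannot be told apart.

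In the mouse, the P-glycoprotein that humans make from a single gene is encoded by Abcb1a and Abcb1b. Abcb1b was the more abundant of the pair, at 8.04 CPM per kb of exon in STK11 WT beside 3.00 for Abcb1a. Abcb1b stood at 63.9, 60.6, 67.1 and 65.5 CPM in STK11 WT and at 16.1, 19.2, 16.7 and 17.7 CPM in STK11 KO. It fell to 27.1% of its STK11 WT level, a log2 fold change of -1.88 (SE 0.07, adjusted p = 2.24e-16). Abcb1a read 17.0, 17.4, 15.8 and 15.6 CPM in STK11 WT and 6.69, 5.47, 6.84 and 5.93 CPM in STK11 KO. It fell by 1.40 on the log2 scale (SE 0.10, adjusted p = 2.82e-11), again with no overlap between the groups. The paralogs are alike enough that reads may be split between them: 17.4% of the 51-base stretches of Abcb1a transcripts and 11.4% of those of Abcb1b also occur in another gene's transcripts, mostly each other's. With both genes summed to 1 row the log2 fold change was -1.77.

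Abcb1a (chr5:8710077-8798575) and Abcb1b (chr5:8848147-8916315) lie beside Abcb4 (chr5:8943717-9009231) on the plus strand of chromosome 5 in GRCm39, with no other protein-coding gene between them. Abcb4, whose product flips phosphatidylcholine into bile in the liver, was near the limit of detection, with 15, 29, 17 and 18 counts in STK11 WT and 0, 0, 5 and 2 in STK11 KO. It reached the count filter in all 4 STK11 WT libraries and in no STK11 KO library, so a tested Abcb4 had to be lower. Its log2 fold change was -3.49 (SE 0.54, adjusted p = 3.79e-06, and 4.08e-11 in a fit with no filter), and stood at -4.65 without STK11 KO replicate 3, so its size is loosely set. The genes around these 3 changed little or in both directions. Upstream, Rundc3b and Slc25a40 were not called, at -0.13 and -0.10 on the log2 scale, and Dbf4 rose by 0.44. Downstream, the peroxisomal acyltransferase gene Crot fell by 0.22, and Tmem243 and Dmtf1 rose by 0.42 and 0.47. Adam22 had too few counts to test.

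**Figure D2:**
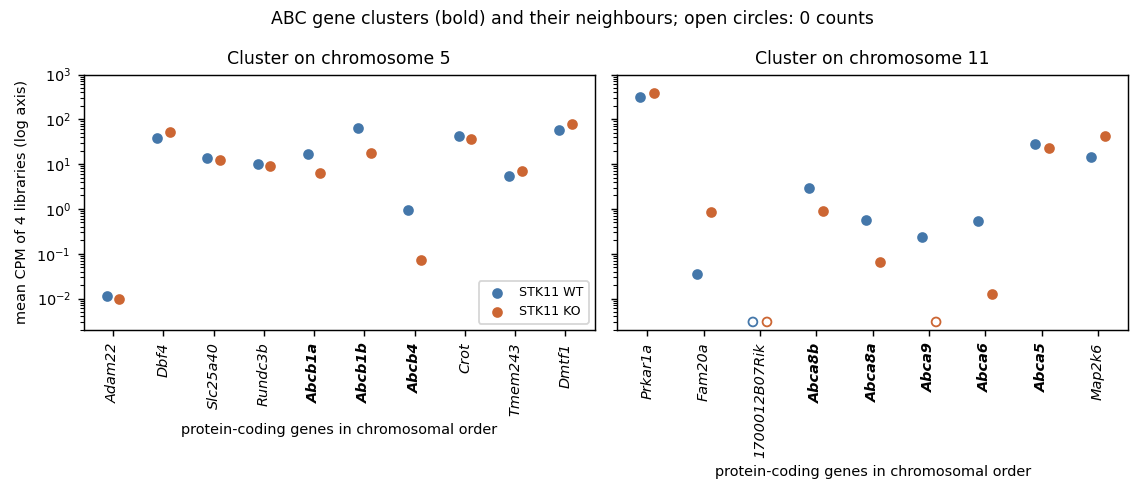
Mean CPM over 4 libraries (log axis) in STK11 WT and STK11 KO for the 2 runs of neighbouring ABC genes (bold) and the protein-coding genes within 300 kb, in chromosomal order. Open circles mark 0 counts. Every bold gene has a lower mean in STK11 KO, by the least at Abca5, and the means of the flanking genes lie close together or, as for Map2k6 and Fam20a, are higher in STK11 KO.

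The 250 bases before the transcription start are shown for 4 genes that fell: the neighbours Abcb1b and Abcb4, the most abundant efflux gene Abcc4, and Abcc5. The letters come from RefSeq on GRCm38.p6, 5′ to 3′ on the gene's own strand, and capitals mark any match to the motifs described after them. For Abcb1a the RefSeq start lies 92986 bases before the coding transcript's start in GENCODE M21, so its window is not shown.
Abcb1b, chr5:8797897-8798146, plus strand: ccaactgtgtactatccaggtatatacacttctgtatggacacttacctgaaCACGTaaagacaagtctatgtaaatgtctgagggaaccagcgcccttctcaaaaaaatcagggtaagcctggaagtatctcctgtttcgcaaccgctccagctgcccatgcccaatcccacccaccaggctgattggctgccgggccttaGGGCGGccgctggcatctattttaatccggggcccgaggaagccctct
Abcb4, chr5:8893471-8893720, plus strand: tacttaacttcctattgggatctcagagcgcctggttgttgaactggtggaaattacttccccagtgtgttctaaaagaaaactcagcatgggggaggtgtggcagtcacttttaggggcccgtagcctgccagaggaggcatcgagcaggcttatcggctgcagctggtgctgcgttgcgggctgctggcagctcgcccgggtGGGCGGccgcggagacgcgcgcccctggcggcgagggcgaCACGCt
Abcc4, chr14:118706220-118706469, minus strand: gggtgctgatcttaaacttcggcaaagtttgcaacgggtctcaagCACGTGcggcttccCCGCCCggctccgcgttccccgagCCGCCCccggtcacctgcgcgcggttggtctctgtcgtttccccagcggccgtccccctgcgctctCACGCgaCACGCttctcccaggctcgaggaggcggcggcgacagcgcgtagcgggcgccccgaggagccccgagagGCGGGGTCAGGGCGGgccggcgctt
Abcc5, chr16:20426395-20426644, minus strand: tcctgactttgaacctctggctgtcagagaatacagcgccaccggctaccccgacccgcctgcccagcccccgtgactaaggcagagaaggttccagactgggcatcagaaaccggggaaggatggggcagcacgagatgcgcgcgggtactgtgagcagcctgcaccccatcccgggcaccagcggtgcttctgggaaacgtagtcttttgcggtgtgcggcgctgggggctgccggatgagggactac

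The motifs were searched on both strands, in windows of 300 bases that also take in 50 bases after the start. They were the GC box GGGCGG, bound by Sp factors, the hypoxia response core ACGTG or GCGTG (HRE), the antioxidant response core TGACNNNGC (ARE), the E-box CACGTG, the lysosomal CLEAR core GTCACGTG and the cAMP response element TGACGTCA (CRE). An E-box contains an HRE core on each strand, and a CLEAR core contains an E-box. In the windows shown, Abcb1b and Abcb4 each hold 1 GC box, 48 and 46 bases before the start, and 1 HRE core. Abcc4 holds the most, with 3 GC boxes, 4 HRE cores, an E-box and an ARE core 25 bases before the start, and is 72.0% G and C. Its HRE cores 205 and 204 bases before the start are the E-box itself, read on both strands. Abcc5 holds none of the 6 motifs. Over the 32851 promoters of the table, 35.7% held a GC box, 43.8% an HRE core, 12.4% an ARE core, 7.15% an E-box, 2.25% a CLEAR core and 1.79% a CRE. Promoters were found for 38 members, 45 windows in all. Of these, 46.7% held a GC box, 51.1% an HRE core, 15.6% an ARE core, 13.3% an E-box, 4.44% a CLEAR core and 4.44% a CRE, the last 3 being 6, 2 and 2 windows. These shares include the Abcb1a window that is not shown, which holds an ARE core. They also include another Abcc4 window with an ARE core, 29274 bases from the nearest coding transcript's start. An Abca16 window 12054 bases from such a start is included too. A match is a run of letters, not a bound site.

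Abcc4, which exports cyclic nucleotides, prostaglandins and nucleoside analogues, had the highest level per length of any member, 80.3 CPM per kb in STK11 WT and 49.5 in STK11 KO. Its values were 528, 526, 496 and 502 CPM in STK11 WT and 303, 290, 365 and 307 CPM in STK11 KO. It fell by 0.70 on the log2 scale (SE 0.06, adjusted p = 1.76e-09). STK11 KO replicate 3 was the highest of its group and still below every STK11 WT library.

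Abcc3, an exporter of glucuronide conjugates and bile salts at the basolateral membrane, stood next at 57.3 CPM per kb in STK11 WT. It measured 329, 334, 322 and 322 CPM in STK11 WT and 176, 139, 143 and 153 CPM in STK11 KO, a log2 fold change of -1.10 (SE 0.06, adjusted p = 6.72e-13). Abcc5, which exports cyclic GMP and nucleotide analogues, read 231, 231, 239 and 232 CPM in STK11 WT and 86.5, 78.3, 84.5 and 80.6 CPM in STK11 KO. It fell 2.83-fold (log2 fold change -1.50, SE 0.05, adjusted p = 8.23e-17), with little spread inside either group.

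Abcg2, the breast cancer resistance protein that exports urate, porphyrins and many drugs, was much scarcer. It read 9.00, 9.96, 8.30 and 8.35 CPM in STK11 WT and 4.21, 3.63, 5.87 and 3.57 CPM in STK11 KO, a log2 fold change of -1.03 (SE 0.14, adjusted p = 1.20e-06). STK11 KO replicate 3 was again the highest of its group, and the groups did not overlap. Abcc10, which exports taxanes and conjugates, fell by 0.27 (SE 0.09, adjusted p = 0.0146), from 12.2 ± 0.621 to 10.1 ± 0.774 CPM (SD, n = 4). Without STK11 KO replicate 2 its adjusted p was 0.0516.

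Abcc1, the exporter of glutathione conjugates and leukotriene C4, stood at 294, 314, 298 and 294 CPM in STK11 WT and 344, 295, 335 and 317 CPM in STK11 KO. Its groups overlapped, and its log2 fold change of 0.11 (SE 0.06, adjusted p = 0.0976) was not called. Without STK11 KO replicate 2 it was called higher, at 0.15 with an adjusted p of 0.0207.

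**Figure D3:**
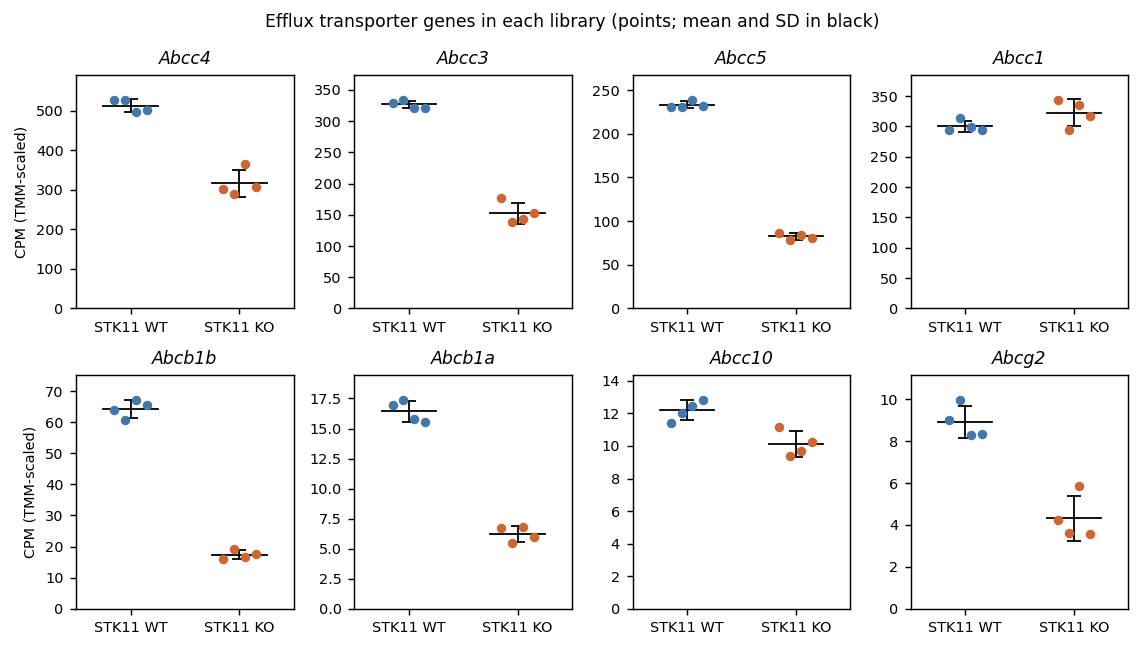
CPM in each library for the 8 tested efflux genes (points), with the mean and SD of 4 libraries in black, each panel starting at 0. In 7 panels every STK11 KO point lies below every STK11 WT point, and in the Abcc1 panel the groups overlap. Of all tested genes, 60.6% had groups that did not overlap.

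Together the 13 efflux genes took 1475 ± 24.2 CPM in STK11 WT and 912 ± 57.3 CPM in STK11 KO (SD, n = 4), a ratio of 0.618. The make-up of the class also differed. Abcc1 made up 20.3% of efflux CPM in STK11 WT and 35.4% in STK11 KO, Abcc4 held 34.8% and 34.7%, Abcc3 22.1% and 16.7%, and Abcc5 15.8% and 9.04%. Per length, Abcc4 was the first efflux gene in both groups. This order depends on the merged exon lengths, 15.1 kb for Abcc1 and 6.39 kb for Abcc4. In STK11 WT the order then ran Abcc3 at 57.3, Abcc5 at 21.8 and Abcc1 at 19.9 CPM per kb, and in STK11 KO it ran Abcc3 at 26.8, Abcc1 at 21.4 and Abcc5 at 7.72. Summed over all 50 members, including the highly counted ones without a membrane part, the family took 2636 ± 49.8 CPM in STK11 WT and 2049 ± 69.5 CPM in STK11 KO.

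**Figure D4:**
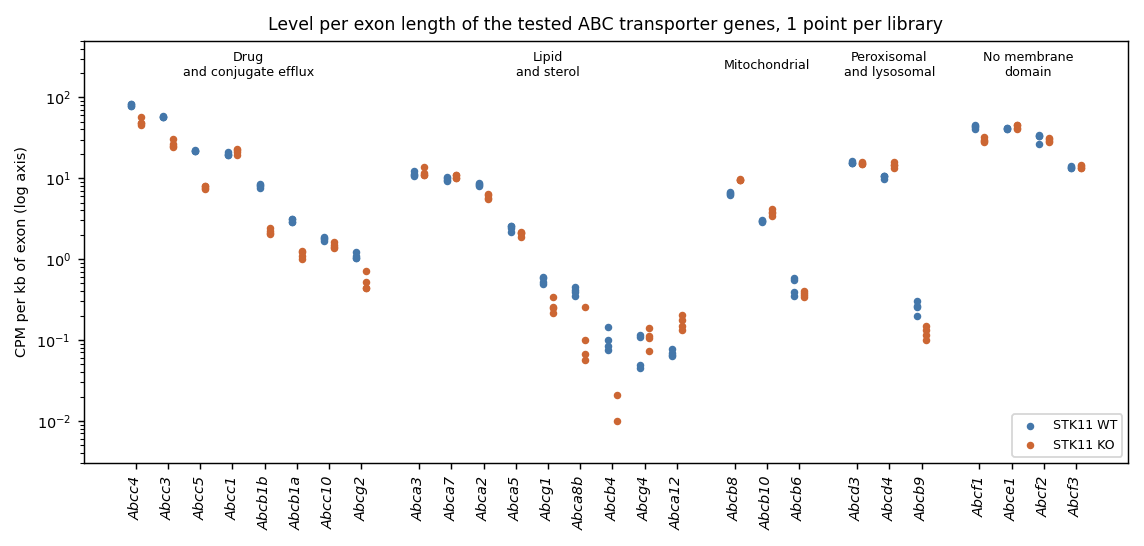
CPM per kb of exon (log axis) of 27 of the 29 tested members, 1 point per library, ordered within each class by the STK11 WT level. Libraries with 0 counts are not drawn, which concerns Abcb4 in 2 STK11 KO libraries. Abcc4 is the highest gene and Abcb4 in STK11 KO the lowest, and Abcb1a, Abcb1b, Abcc5 and Abcb4 show wide gaps between the groups.

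Of the genes for xenobiotic sensing, conjugation and glutathione synthesis, which supply and accompany efflux, 11 of 15 tested fell (73.3%, beside 33.6% of all tested genes) and 2 rose (13.3%, beside 34.4%). Gclc, the catalytic subunit of the first enzyme of glutathione synthesis, went from 370 ± 23.7 to 52.0 ± 1.97 CPM (SD, n = 4), a log2 fold change of -2.83 with an adjusted p of 1.12e-20. Gstm1, a glutathione transferase, went from 196 ± 7.77 to 34.6 ± 2.60 CPM, a log2 fold change of -2.50. The 2 that rose were Arnt, the partner subunit of the aryl hydrocarbon receptor, by 0.59, and the membrane-bound glutathione transferase Mgst1, by 0.29. Over this list the median log2 fold change was -0.72.

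In the lipid class, 13 of 22 genes were not tested, 3 of them (Abca14, Abca15 and Abcg8) with 0 counts in every library. Of the 9 tested, 5 fell (55.6%, beside 33.6% of all tested genes), 1 rose (11.1%, beside 34.4%) and 3 were not called. The median log2 fold change was -0.24. Among the falls were Abcb4 and Abca8b, which passed the count filter through the STK11 WT libraries. The share that fell and the median are therefore not independent of that filter. The highest per length was Abca3, which loads surfactant lipids into lamellar bodies of alveolar type II cells, at 11.4 CPM per kb in STK11 WT and 11.8 in STK11 KO. It read 103, 115, 107 and 101 CPM in STK11 WT and 107, 102, 128 and 103 CPM in STK11 KO, and was not called at 0.05 (SE 0.07, adjusted p = 0.530). These levels stood in libraries in which the surfactant protein genes Sftpc and Sftpb had 0 counts and 1 count in all. Its neighbour Abca17 lies 0.881 kb away on the other strand and had 3 counts in STK11 WT and 9 in STK11 KO.

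Abca7, a phospholipid transporter, and Abca2, which acts on sphingolipids and sterols in lysosomes, came next per length. Abca7 was not called, at 66.0 ± 3.37 and 70.9 ± 3.94 CPM (SD, n = 4) and a log2 fold change of 0.10 with a 95% interval of -0.01 to 0.22. Abca2 fell by 0.49 (SE 0.06, adjusted p = 1.19e-07), from 69.5 ± 1.95 to 49.5 ± 2.77 CPM.

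Abca12, which loads glucosylceramides into the lamellar granules of keratinocytes, was the member with the largest rise and was scarce in both groups. It read 1.14, 1.02, 0.963 and 0.927 CPM in STK11 WT and 2.18, 1.98, 2.99 and 2.64 CPM in STK11 KO. It rose 2.43-fold (log2 fold change 1.28, SE 0.21, adjusted p = 1.61e-05), and all 4 STK11 KO libraries lay above all 4 STK11 WT libraries.

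Abcg1, which passes cellular cholesterol to high-density lipoprotein, read 3.62, 4.36, 3.81 and 4.28 CPM in STK11 WT and 1.83, 1.55, 1.86 and 2.46 CPM in STK11 KO. It fell by 1.06 on the log2 scale (SE 0.17, adjusted p = 9.19e-06), with no overlap. Abcg1 is also a macrophage gene. The 6 immune markers summed to 46.7 to 53.1 CPM in STK11 WT and 13.0 to 25.4 CPM in STK11 KO, nearly all of it Cd68, while Adgre1 had 0 counts and Ptprc, the pan-leukocyte marker, had 1 count over all 8 libraries. Abcg1's close relative Abcg4 was near the detection limit, with 5 to 16 counts per library, and was not called. Abca1, the partner of Abcg1 in cholesterol efflux, had only 10 counts over STK11 WT and 3 over STK11 KO. The ratio of STK11 WT over STK11 KO was 3.53, with a 95% counting interval of 0.909 to 20.0. The paired sterol exporter genes Abcg5 and Abcg8 had 1 count in each group and 0 counts.

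Abcg1 and Abca1 are known targets of the liver X receptors, which sense oxysterols. Of the sterol-sensing and liver X receptor target genes outside the family, 7 of 14 tested fell (beside 33.6% of all tested genes) and 4 rose (28.6%, beside 34.4%), with a median log2 fold change of -0.14. The phospholipid transfer protein gene Pltp fell by 2.23 (11.2 ± 1.08 to 2.39 ± 0.653 CPM, SD, n = 4) and Arl4c by 0.76. The fatty acid desaturase gene Scd2 rose by 1.26 (1154 ± 80.3 to 2764 ± 354.7 CPM) and Rxra, the receptors' partner, by 1.08.

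A second run of neighbours on chromosome 11, Abca8b, Abca8a, Abca9, Abca6 and Abca5, held further lipid genes. Abca8b (chr11:109823016-109886671) read 3.33, 2.92, 2.61 and 3.04 CPM in STK11 WT and 0.496, 0.424, 0.738 and 1.90 CPM in STK11 KO. Its log2 fold change was -1.73 (SE 0.29, adjusted p = 1.80e-05), and only 2 of the 4 STK11 KO libraries reached the count filter. STK11 KO replicate 4 stood apart in its group, with 41 counts beside 9 to 19, and without it the log2 fold change was -2.38.

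The next 3 genes had too few counts to be tested. Abca8a had 9, 11, 21 and 6 counts in STK11 WT and 3, 0, 3 and 0 in STK11 KO. Abca9 had 4, 8, 8 and 0 counts in STK11 WT and none in STK11 KO, at least 7.06-fold lower against that floor. Abca6 had 11, 11, 7 and 16 counts in STK11 WT and 1, 0, 0 and 0 in STK11 KO. Its ratio of STK11 WT over STK11 KO was 47.7, with a 95% counting interval of 8.13 to 1924. In a fit with no filter on low counts, edgeR called these 3 lower (adjusted p = 3.16e-06, 5.55e-05 and 7.86e-09 for Abca8a, Abca9 and Abca6). That fit called 5 untested members in all, each lower, the others being Abca4 (adjusted p = 0.0231) and Abcd2 (adjusted p = 0.0491), neither of which DESeq2 called (adjusted p = 0.0653 and 0.136).

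Abca5, at the end of the run and its best expressed gene, fell by 0.24 (SE 0.08, adjusted p = 0.00854), from 27.6 ± 2.34 to 23.4 ± 1.49 CPM (SD, n = 4), with overlap between the groups. On the far side of Abca5, the MAP kinase kinase gene Map2k6 rose by 1.56. Beyond Abca8b, Prkar1a rose by 0.26, and Fam20a, which was close to 0 in STK11 WT, rose by 4.34 (SE 0.60). Fam20a passed the count filter only through the STK11 KO libraries, so a tested Fam20a had to be higher. Fibroblast markers summed to 3.92 to 5.72 CPM in STK11 WT and 2.03 to 3.07 CPM in STK11 KO, mostly Col1a1, with Col1a2 at 0 counts in every library. Within the sum, Col3a1 had 74 counts over STK11 WT and 3 over STK11 KO, and Dcn had 0 and 4. What part these markers have in the low-level ABC values was not tested.

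Among the mitochondrial genes, Abcb8 and Abcb10 rose and Abcb6 was not called. Abcb8, a protein of the inner membrane tied to potassium transport and iron export, rose by 0.57 (SE 0.06, adjusted p = 2.86e-08), from 30.7 ± 1.25 to 45.5 ± 0.910 CPM (SD, n = 4). Abcb10, which is needed for heme synthesis in red cell precursors, rose by 0.35 (SE 0.09, adjusted p = 0.00110), from 12.8 ± 0.246 to 16.2 ± 1.26 CPM. In both genes the groups did not overlap.

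Abcb6, a porphyrin transporter of mitochondria and lysosomes, was not called, at 2.50 ± 0.619 and 1.97 ± 0.151 CPM (SD, n = 4) and a log2 fold change of -0.34 (adjusted p = 0.131). Of its 51-base stretches, 49.9% also belong to the overlapping long noncoding gene Gm29253, which had 0 counts in every library, so reads shared by both may not have been counted. Without STK11 WT replicate 3, Abcb6 was called lower, at -0.46 with an adjusted p of 0.0478.

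Of the genes for iron-sulfur cluster assembly and heme synthesis, with which these transporters work, 8 of 22 tested fell and 6 rose, or 36.4% and 27.3%, close to the 33.6% and 34.4% of all tested genes. Bola3 rose by 0.92, and Glrx5 and Alad fell by 0.60 and 0.46. The median log2 fold change over these 22 was -0.01.

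Among the peroxisomal and lysosomal genes, Abcd4 rose and Abcb9 fell, Abcd3 was not called, and Abcd2 had too few counts, 16 in STK11 WT and 4 in STK11 KO. Abcd3, the abundant peroxisomal carrier of branched-chain acyl-CoA and the highest of the class per length, read 108, 103, 101 and 103 CPM in STK11 WT and 104, 98.7, 98.0 and 102 CPM in STK11 KO. It was not called, at -0.04 with a 95% interval of -0.14 to 0.06. Of 23 other peroxisomal genes tested, 12 fell (52.2%, beside 33.6% of all tested genes) and 7 rose (30.4%, beside 34.4%), with Hsd17b4 at -0.57, Pex11a at -0.90, Scp2 at 0.76 and Amacr at 0.93.

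Abcd4, which with its partner LMBD1 releases vitamin B12 from lysosomes, rose by 0.48 (SE 0.06, adjusted p = 1.55e-07). It stood at 79.1, 86.1, 86.1 and 85.8 CPM in STK11 WT and at 127, 117, 108 and 116 CPM in STK11 KO, with no overlap. Of 8 other genes of cobalamin uptake and use, 2 rose (Mtrr by 0.47 and Mmadhc by 0.20) and 3 fell, among them Mmab by 0.22, beside 34.4% higher and 33.6% lower of all tested genes. The one of these with the smallest adjusted p was Cd320, the cell-surface receptor for transcobalamin-bound vitamin B12, which fell by 1.41, from 12.9 ± 1.35 to 4.83 ± 0.821 CPM (SD, n = 4). The receptor gene and the lysosomal exporter gene thus changed in opposite directions.

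Abcb9, a lysosomal peptide transporter, read 1.48, 1.11, 1.70 and 1.44 CPM in STK11 WT and 0.644, 0.565, 0.738 and 0.834 CPM in STK11 KO. It fell by 1.03 (SE 0.25, adjusted p = 0.00106), on 12 to 37 counts per library. Its relatives Tap1 and Tap2, which load peptides for MHC class I and carry no Abc symbol, fell by 0.54 and 1.00, from 12.0 ± 0.775 to 8.30 ± 1.59 CPM and from 19.2 ± 1.97 to 9.56 ± 1.22 CPM (SD, n = 4). Cftr, the chloride channel of the C subfamily, was not called, at 1.69 ± 0.401 and 1.34 ± 0.448 CPM.

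The genes without a membrane part were among the most abundant members per length. Abce1, which splits ribosomes after termination, read 252, 246, 246 and 249 CPM in STK11 WT and 246, 269, 253 and 272 CPM in STK11 KO, with overlap, and was not called at 0.07 (SE 0.05, adjusted p = 0.251). Abcf1, which binds initiation factor eIF2 and ribosomes, was the one of the 4 that fell. It stood at 191, 203, 179 and 197 CPM in STK11 WT and 123, 129, 144 and 127 CPM in STK11 KO, a log2 fold change of -0.56 (SE 0.06, adjusted p = 1.56e-08).

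Per length, Abcf1 and Abce1 stood at 43.6 and 41.3 CPM per kb in STK11 WT and at 29.6 and 43.3 in STK11 KO. Abcf2 and Abcf3 were not called, at -0.10 and 0.01. Abcf2 was called lower without STK11 WT replicate 3, at -0.17 with an adjusted p of 0.0170. Of 15 tested genes of ribosome recycling and eIF2, 6 rose and 3 fell, beside 34.4% and 33.6% of all tested genes, with Eif1 at 1.36, Eif2s2 at 0.77, Gcn1 at -0.43 and Ltn1 at -0.32.

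The channel regulators were not detectable or nearly so at this depth. Abcc9, the sulfonylurea receptor of muscle, and the pore genes Kcnj8 and Kcnj11 had 0 counts in every library, and Abcc8, the receptor of pancreatic beta cells, had 0, 2, 0 and 1 counts in STK11 WT and 0, 0, 1 and 0 in STK11 KO. A count of 0 over the 4 libraries of a group allows a level of up to 0.0358 CPM in STK11 WT and 0.0338 CPM in STK11 KO, counting error only. Of the other members with few counts, Abca4, the retinal flippase, had 43 counts against 19, Abcb11, the bile salt export pump, 15 against 12, Abca13 5 against 5, and Abca16 1 against 0.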

How the data were processed

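RNA came from untreated cultures of parental and Stk11-edited Lacun3 cells, 4 each. Per the labels' protocols, 100 ng of RNA went into Illumina stranded mRNA libraries, read as pairs of 51 bases. The tools listed in the submitters' processing notes are STAR 2.7.9a, featureCounts 1.6.0, FastQC 0.11.8, limma and edgeR, with the build GRCm39. For their parameters, the strand setting and reads with several matches, nothing is given in the sources used here, so overlapping and near-identical genes are uncertain. The authors deposited raw counts for 56884 genes and normalized log2 values for 15726 of them, the latter used as an alternative only.

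The ABC transporter genes, their classes and the lists of related genes were chosen with earlier results of these data known. Genes passing edgeR's filterByExpr (13707) were fitted to the deposited counts with edgeR 4.0.16 in R 4.3.3 (TMM, robust quasi-likelihood test, Benjamini-Hochberg adjustment over all of them, called under 0.05). The fit was tried on simulated data in which far fewer genes were changed than were called here. Its error rates with so many changed genes were not tested. The standard error is the size of the log2 fold change over the root of F. CPM per kb uses merged exon lengths of GENCODE M21, found for all 50 members. Values in every library are printed for members called with an absolute log2 fold change of at least 1. So are those of the highest member per length in STK11 WT of each class but the mitochondrial one, and of Abcc1, Abcd4 and Abce1. Of each related list, up to 2 genes that rose and 2 that fell, with the smallest adjusted p, are named. A few genes, 2 members among them, are counted but not reported here by name. Other scalings, filters and tools (DESeq2 1.42.0, limma 3.58.1), the replicate block and leaving out each library were tried. Counting intervals are exact 95% intervals.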

Additional observations from a re-analysis of the deposited data

Results flagged for a closer look

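The level in each group of 4 libraries was searched for a library far from the others in the 60 groups of tested members and Stk11. A gap above Dixon's critical share of the group's range occurred in 2 of them, and chance gives about 1 in 20 groups, or 3. Abcf2 stood at 68.7 CPM in STK11 WT replicate 3, below the 84.7 to 86.8 CPM of the other 3, and without this library it was called lower in STK11 KO. Abcd4 stood at 79.1 CPM in STK11 WT replicate 1, below the 85.8 to 86.1 CPM of the others, and every STK11 KO library was still higher than all 4.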

How the results depend on the processing

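Over 18 other settings, 496 of 520 values of the 29 tested members kept their direction and side of the threshold. Members called numbered 4 to 5 higher and 13 to 19 lower, the most lower with no filter on low counts, where 44 members were tested. All genes called numbered 8723 to 10335. Leaving out 1 library gave 4 to 5 members higher, 14 to 17 lower and 8921 to 9656 genes called. With the replicate number as a block, 4 members were higher, 14 lower and 9182 genes were called. Same-numbered libraries correlated at 0.0352, -0.00771, -0.121 and 0.00340. No pairing by number showed in these values, which cannot decide whether the replicates were handled in pairs. The direction turned in 6 values of genes that were not called. With library size alone, which moves the median of all genes by -0.08 on the log2 scale, Abca3 was at -0.0319, Abce1 at -0.0162 and Abcf3 at -0.0712. Abcf3 was at -0.000705 with upper-quartile scaling and ranged from -0.00471 (without STK11 KO replicate 1) to 0.0344 with 1 library left out, and Abca3 from -0.0314 (without STK11 KO replicate 3) to 0.0890. With library size alone Abcf2 and Abcd3 were called lower, at -0.18 and -0.13. In each of these the cause was not tested. The quasi-likelihood fit in its legacy form, chosen after seeing the data, called 5 members higher and 14 lower. Depth limits the 21 untested members, of which 6 had 0 counts and the others at most 62 over all libraries.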
